A study of Mus musculus with 48 samples.

Results

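Neurotrophins and their receptors were described here through 6 genes, Bdnf, Ntf3, Ntrk2, Ntrk3, Ngfr and Vgf, in the cerebral cortex of mice that breathed traffic-derived nano-sized particulate matter (nPM) or filtered air. The 6 genes were taken by symbol from both expression tables of the series, and each symbol was present as 1 row in both, among 16952 genes that the tables share. In 16 comparisons of nPM or APOE allele, 0 of 87 fits of a member passed the threshold, and Ntf3 and Ngfr were too low to be tested in some comparisons that include B6 mice. The differences nearest to a threshold, higher Vgf and Ntrk3 in APOE4 than in APOE3 female controls, were smaller without 2 control libraries that stood apart from the others. The unadjusted limma p of Vgf was then 0.0138, against 0.0221 with all mice, and neither gene passed.

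Neurotrophins are small secreted proteins that are made as precursors and cleaved, and they keep neurons alive, shape dendrites and strengthen active synapses. BDNF acts through the receptor tyrosine kinase TrkB (gene Ntrk2), NT-3 acts mainly through TrkC (gene Ntrk3), and the precursors bind p75NTR (gene Ngfr) together with sortilin. In adult cortex, Bdnf is transcribed mainly in excitatory neurons in response to activity, TrkB is made by neurons and, in a truncated form without the kinase, by astrocytes, and p75NTR is best known from the cholinergic neurons of the basal forebrain. Vgf encodes a secreted neuropeptide precursor that neurotrophins, BDNF among them, induce.

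The series holds 48 mice in 12 groups of 4, one for each sex, genotype and exposure. C57BL/6J (B6) mice with the mouse Apoe gene were exposed for 8 weeks and were 4 months old. APOE-TR mice, in which human APOE3 or APOE4 replaces the mouse gene at its own locus, were exposed for 15 weeks and were 6 months old. Exposure to nPM or filtered air lasted 5 h per day on 3 days per week in both experiments. The mice of the 2 strains were exposed and tabulated separately, and the paper states that the exposures used different batches of nPM. Genotype B6 therefore cannot be told apart from age, exposure length, nPM batch and table, and B6 levels were not compared with APOE-TR levels. Levels are given as deposited, in CPM (read counts scaled to the size of the library), and differences are on the log2 scale of TMM-scaled CPM plus 0.5, which understates the change of genes near or below 1 CPM.

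Reads per mouse, estimated from the step between low values, ran from 2050000 to 24400000 in B6 and from 17800000 to 31300000 in APOE-TR mice. Xist was at least 90.3 CPM in every female and at most 0.397 CPM in every male, and mouse Apoe was at 8.81 to 30.7 CPM in APOE-TR mice against 164 to 503 CPM in B6 mice, as their labels say. The markers of the labelled tissue were present, with a summed level of 7 excitatory neuron markers of 1177 to 5469 CPM in B6 and 2860 to 5189 CPM in APOE-TR mice. Among APOE3 female controls, mice 61 and F6 stood apart from the other 30 APOE-TR mice. Longer transcripts were lower in them, with slopes of −0.545 and −0.396 log2 units per doubling of length relative to the mean of their table, where the other 30 ran from −0.218 to 0.156. In those same libraries the summed level of 7 excitatory neuron markers was 5189 and 4318 CPM, above the 2860 to 4106 CPM of the other 30, and 7 oligodendrocyte markers summed to 7101 and 5437 CPM against 2879 to 5675 CPM. A sum is carried by its most abundant markers. Taken singly, 5 of the 7 excitatory neuron markers were higher in APOE4 than in APOE3 female controls and 2 were lower (median 0.461). The excitatory sum thus does not show that most of these markers were high in 61 and F6. The mouse number in the label of column F6 matched no listed sample, and it was used only as a control of its group. Many estimates of the members below that use these 4 controls are given with and without 61 and F6, and the rest only with them. APOE-TR males and females also differed in this slope without overlap, since the 16 males ran from 0.0578 to 0.156 and the other 14 females from −0.218 to 0.0284, so a difference in level between the sexes cannot be told apart from this property of the libraries.

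Each row of the tables sums all transcripts of a gene. Bdnf lies on chromosome 2 (109674700 to 109727007, plus strand, GRCm38) with 11 annotated transcripts, and is known for alternative first exons that share 1 coding exon. RefSeq (GRCm38.p6) gives 7 upstream windows for Bdnf, and a gene-level row cannot say which of these starts was used. The third window is shown because it is the 1 of the 7 that holds a CRE core (CGTCA or its reverse TGACG, searched on both strands), letters recognised by the activity-regulated factor CREB. The 250 bases upstream of that start, chr2:109692186-109692435 on the plus strand, carry the match in capitals:
Bdnf window 3: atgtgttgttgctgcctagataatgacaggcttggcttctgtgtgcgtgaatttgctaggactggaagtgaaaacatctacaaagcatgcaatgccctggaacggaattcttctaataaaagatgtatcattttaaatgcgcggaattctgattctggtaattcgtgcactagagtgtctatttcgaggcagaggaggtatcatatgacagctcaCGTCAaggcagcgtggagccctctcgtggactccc
A CRE core was found in 17.8% of 32851 windows of the same length, so such a match is common.

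Ntf3 (chromosome 6, 126101412 to 126166910, minus strand), Ntrk2 (chromosome 13, 58806569 to 59133970, plus strand), Ntrk3 (chromosome 7, 78175959 to 78738012, minus strand), Ngfr (chromosome 11, 95568818 to 95587735, minus strand) and Vgf (chromosome 5, 137026392 to 137033351, plus strand) complete the set. Ntrk2 spans 327 kb with 10 annotated transcripts, and Ntrk3 spans 562 kb with 20, of which 7 and 6 are coding. Both genes are known to give receptor forms with and without the kinase. These forms were not separated by the tables, so a Ntrk2 level sums full-length and truncated TrkB.

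Per kilobase of the longest annotated transcript, Ntrk2 was the most abundant member in both tables. Its median was 55.02 CPM per kb in APOE-TR and 26.5 CPM per kb in B6 mice. Vgf followed at 27.99 and 9.11 CPM per kb. Next came Bdnf at 4.84 CPM per kb and Ntrk3 at 2.96 CPM per kb in APOE-TR mice, and these 2 stood in the opposite order in B6 mice, at 1.14 CPM per kb for Bdnf and 2.35 CPM per kb for Ntrk3. The gene models behind the tables differ, since Ntrk3 ran from 78175959 to 78738013 in the B6 table and from 78192114 to 78577839 in the APOE-TR table, and Vgf from 137026392 and from 137030295 to 137033352, so 1 length per gene suits them unequally. Ntf3 and Ngfr were the scarcest, with medians of 0.510 and 0.286 CPM per kb in APOE-TR and 0.331 and 0.234 CPM per kb in B6 mice. Depth limited the scarce members most. A median of 715 reads per APOE-TR mouse stood behind Bdnf, against 8 to 59 reads per mouse behind Ntf3 and 14 to 96 behind Ngfr.

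**Figure D1:**
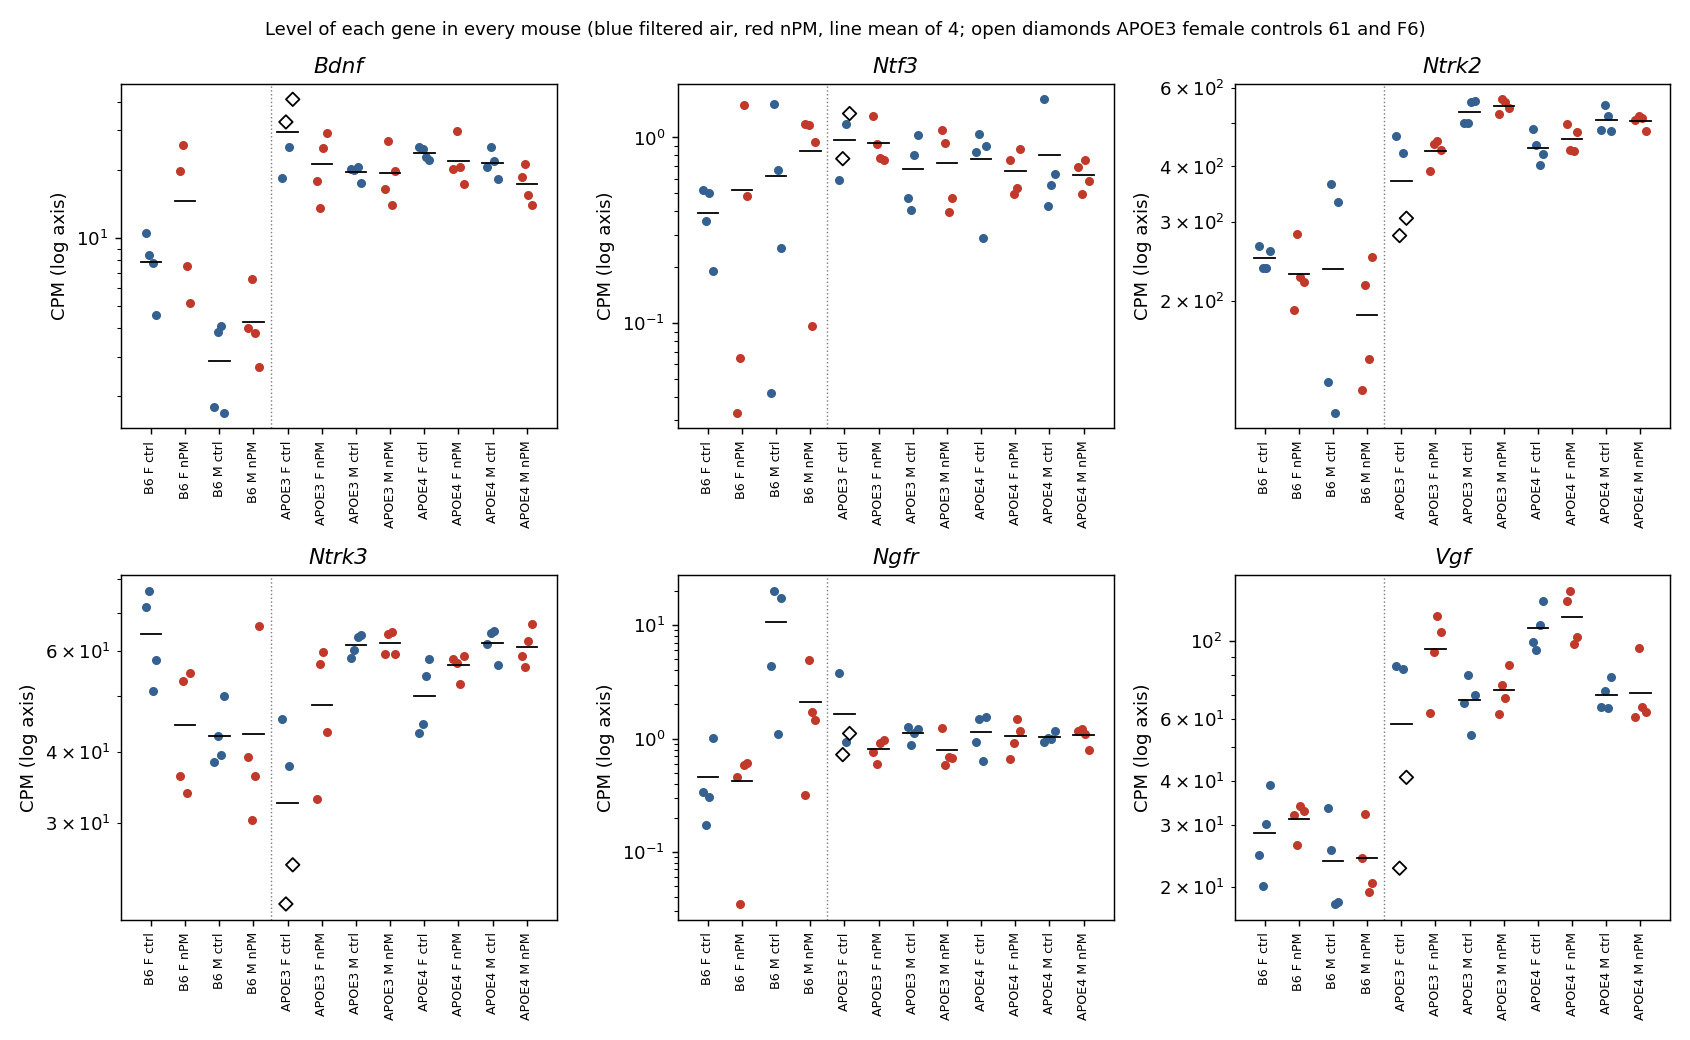
Level in CPM (log axis) of Bdnf, Ntf3, Ntrk2, Ntrk3, Ngfr and Vgf in each of 48 mice, in 12 groups of 4 with the group mean as a line. Blue points are filtered air, red points nPM, and open diamonds APOE3 female controls 61 and F6. The diamonds are the lowest APOE-TR values of Ntrk2, Ntrk3 and Vgf and the highest of Bdnf, and among B6 mice Ngfr is highest in male controls, at up to 20.2 CPM. The dotted line divides the B6 from the APOE-TR table, whose levels are not comparable.

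The first comparison asked whether nPM changed a gene over both experiments, in a limma model of 48 mice with sex and genotype as terms, called at an unadjusted p under 0.005. The 4 members with at least 1 read in each of the 48 libraries were tested, and 0 of 4 passed, where 1.47% of 11097 genes did. Vgf was 0.22 higher under nPM (SE 0.12, 95% interval −0.02 to 0.46, limma adjusted p = 0.37), and Bdnf, Ntrk2 and Ntrk3 were 0.05, 0.02 and 0.04 higher with standard errors of 0.155, 0.0992 and 0.109. For Ntrk2 the interval ran from 0.882-fold to 1.16-fold, so larger average changes of the TrkB transcript lay outside it. Without 61 and F6 the Vgf estimate was 0.09, and those of Ntrk2 and Ntrk3 were −0.05 and −0.06. Ntf3 was at the value of a gene without reads in 3 B6 mice and Ngfr in 1, so neither entered this model.

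The same model gave the difference between APOE4 and APOE3 mice, called at 5% FDR. Here too 0 of 4 tested members passed, against 0.378% of 11097 genes. Vgf was 0.38 higher in APOE4 than in APOE3 mice (SE 0.147, 95% interval 0.08 to 0.67, limma adjusted p = 0.275). Ntrk3 was 0.25 higher (SE 0.133, adjusted p = 0.349), while Ntrk2 at 0.07 and Bdnf at −0.02 were nearer 0. Without 61 and F6 the differences were 0.17 for Vgf and 0.09 for Ntrk3.

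Stratified by sex and genotype, 0 of the members tested passed for nPM in any of the 6 groups. The numbers tested were 4 in B6 females, 5 in B6 males and 6 in each APOE-TR group. At the same threshold 1.19% of genes passed in B6 females, 0.246% in B6 males, 0.665% in APOE3 females, 0.154% in APOE3 males, 0.272% in APOE4 females and 0.178% in APOE4 males. Between the alleles, 0 of 6 members passed 5% FDR in any of 4 comparisons, where the share of all genes was 0.231% in female controls, 0.433% in male controls, 0.145% in nPM females and 0.474% in nPM males. Over all 87 fits of a member, 8 had an unadjusted p under 0.05 and the smallest adjusted p was 0.0812. With 1 variance shared over the groups, Ngfr in B6 males and Ntrk3 and Vgf in APOE3 females passed for nPM, where 763 of 12121 and 1668 of 15725 genes did. Ntrk2, Ntrk3 and Vgf passed between alleles in female controls, together with 8866 of 16419 genes. The 8 were Vgf between alleles over 48 mice, Ntrk3 and Vgf between alleles in female controls, Ntrk2 between alleles in nPM males, and, under nPM, Ntrk3 in B6 females, Ngfr in B6 males, Ngfr in APOE3 males and Bdnf in APOE4 males. Shares of all genes at that level were 15.1% between alleles over 48 mice, 41.1% in female and 5.82% in male controls, and 9.1% in female and 9.85% in male nPM mice. For nPM they were 10.5% in B6 females, 4.34% in B6 males, 21.1% in APOE3 females, 2.22% in APOE3 males, 5.59% in APOE4 females and 4.14% in APOE4 males. In addition, 60 exact two-sided permutation tests of 4 mice against 4 were run, for which the smallest possible p is 0.0286. Only Vgf in female controls reached it, and its value adjusted over the 60 tests was 0.786. In unscaled CPM the groups did not overlap in 2 of the 60, Vgf in female controls and Ntrk2 between alleles in nPM males. Shares of all genes whose groups did not overlap in unscaled CPM were 6.75%, 6.61% and 3.47% under nPM in B6, APOE3 and APOE4 females, 2.24%, 1.55% and 2.54% in the corresponding males, 29.3% and 3.59% between alleles in female and male controls, and 5.92% and 5.66% in female and male nPM mice.

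**Figure D2:**
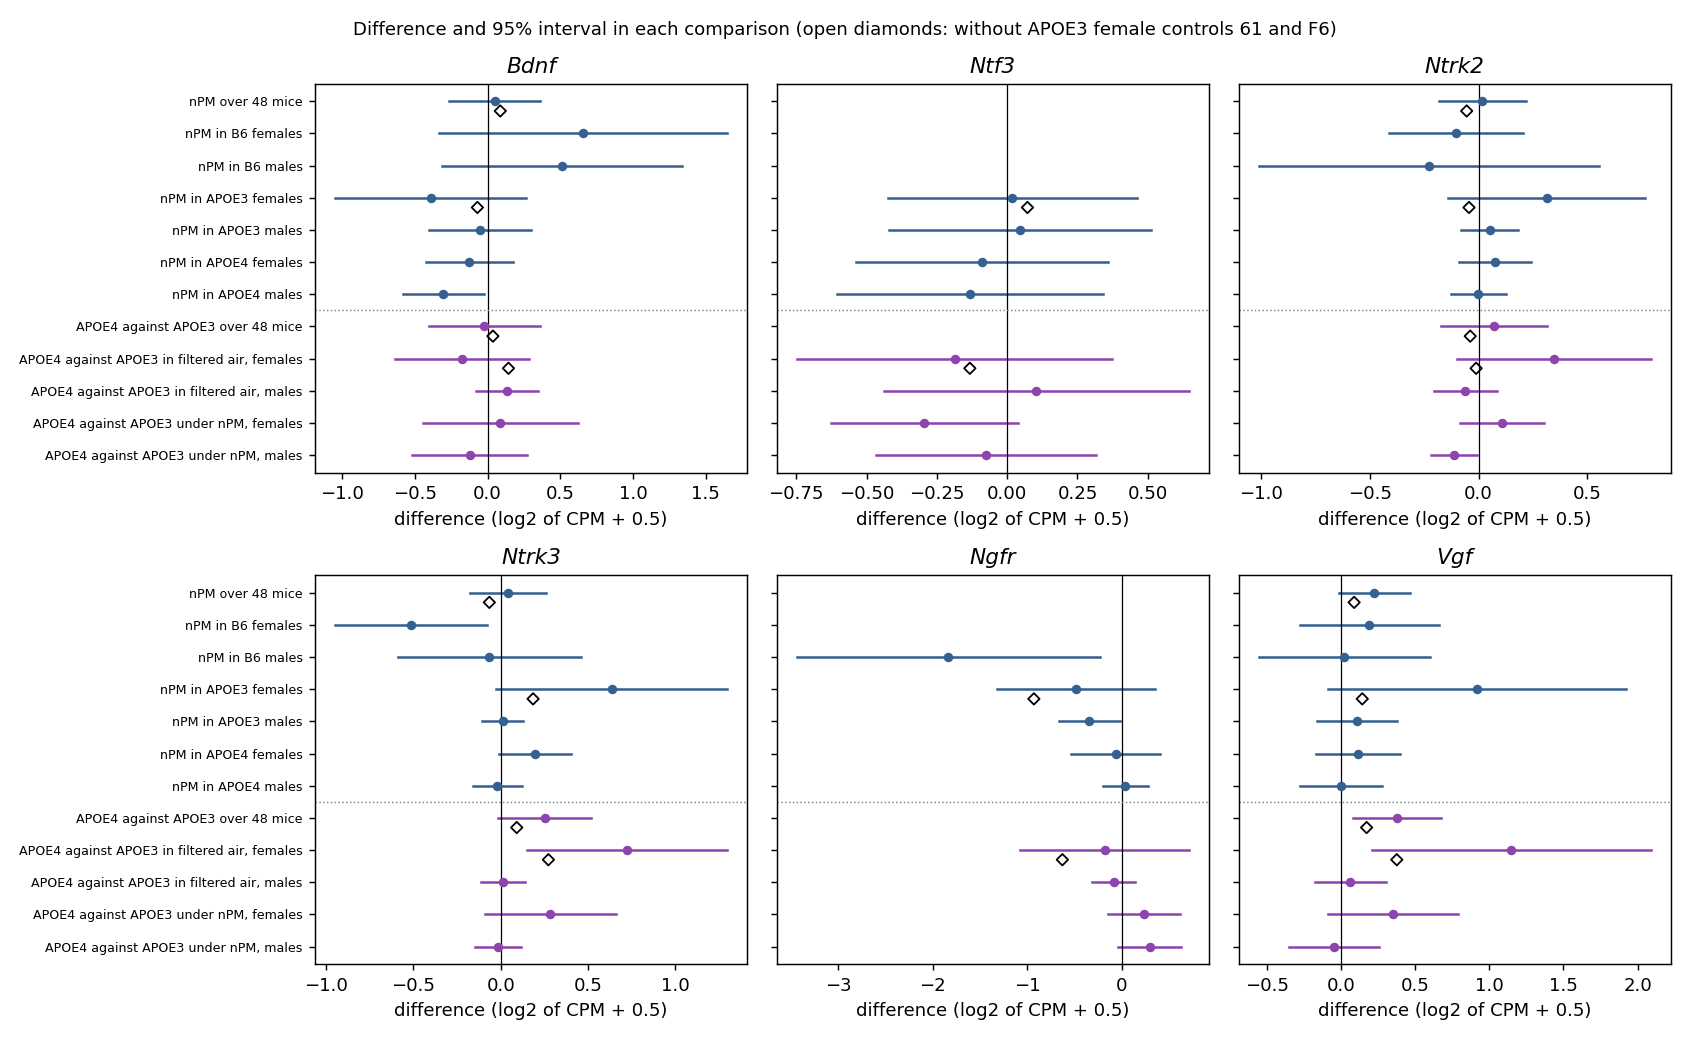
Difference in log2 (CPM + 0.5) with its 95% interval from limma for each member, nPM against filtered air in the upper 7 lines (blue) and APOE4 against APOE3 in the lower 5 (purple); open diamonds give the estimate without APOE3 female controls 61 and F6. Where no line is drawn the gene was not tested. The diamonds of Ntrk2, Ntrk3 and Vgf lie closer to 0 than the points above them in APOE3 females under nPM and in the female control comparison, and those of Ngfr lie further from 0, at −0.93 and −0.63.

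Bdnf, the ligand of TrkB, had group means between 17.4 and 29.4 CPM in APOE-TR mice and between 2.86 and 14.5 CPM in B6 mice. In B6 female controls it was at 10.6, 8.46, 7.78 and 4.58 CPM, and under nPM at 19.8, 25.7, 7.52 and 5.15 CPM. Mice 50 and 51 were above all controls while the other two nPM females lay among them, so the groups overlapped. The difference was 0.66 (SE 0.46, 95% interval −0.33 to 1.65, limma adjusted p = 0.628). B6 males were lower, with 1.79, 3.87, 4.08 and 1.70 CPM in controls and 4.02, 6.60, 3.79 and 2.69 CPM under nPM, and the estimate of 0.51 had an SE of 0.383. Between these males 7 of 7 excitatory neuron markers were higher under nPM (median 1.61). Bdnf and the excitatory neuron sum had a Pearson r of 0.667 over the 16 B6 mice and 0.452 over the 8 males. The part of these cells in the estimate was not tested.

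In APOE4 males Bdnf was at 20.6, 25.2, 22.0 and 18.3 CPM in filtered air and at 18.6, 21.3, 15.6 and 14.1 CPM under nPM. The groups overlapped, with 2 nPM mice below every control. The difference was −0.31, or 0.809-fold (SE 0.127, 95% interval −0.58 to −0.03, limma p = 0.0344, adjusted p = 0.954), and the exact permutation test gave p = 0.143. APOE3 males (−0.05) and APOE4 females (−0.13) differed less than their standard errors of 0.16 and 0.136. APOE3 female controls had the highest mean, 29.4 ± 9.70 CPM (SD, n = 4), made of 18.5 and 25.4 CPM in mice 52 and 63 and 32.6 and 41.1 CPM in mice 61 and F6. Their nPM counterparts were at 17.9, 13.6, 24.9 and 29.1 CPM, a difference of −0.39 (SE 0.288) that was −0.07 without 61 and F6. APOE4 female controls, at 25.2, 24.8, 22.8 and 22.3 CPM, had an SD of 1.44 CPM. In the order of the 8 APOE-TR means, every neighbouring pair differed by less than the larger of its SDs. In B6 mice, the gap between female controls at 7.85 CPM and nPM males at 4.28 CPM was larger than either SD.

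Ntf3, the gene of NT-3, was measured near the limit of detection. Group means lay between 0.632 and 0.973 CPM in APOE-TR mice, all within an SD of their neighbours. Single mice ran from 0.286 CPM, in an APOE4 female control, to 1.61 CPM in an APOE4 male control. In B6 mice single values ran up to 1.51 CPM, and 3 mice were at the value of a gene without reads. B6 nPM females had 0.033, 0.0649, 1.499 and 0.482 CPM, so nearly the whole range of the table was found inside this group. The 4 nPM estimates in APOE-TR mice were between −0.13 and 0.05, and the 4 allele estimates between −0.29 and 0.10, with standard errors of 0.149 to 0.247. The widest interval, −0.75 to 0.37 for the allele in female controls, shows what differences in the NT-3 transcript could not be detected at this depth.

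Ntrk2, the TrkB gene, had the smallest coefficient of variation of the set over the 30 APOE-TR mice other than 61 and F6, 10.02%. Its coefficient of variation within APOE-TR groups was between 3.33% and 7.8%, except in APOE3 female controls at 24.8%. These 4 mice were at 469, 280, 429 and 306 CPM, in which the low values belong to 61 and F6, and nPM mice were at 391.7, 450, 457 and 435 CPM. All 4 nPM mice lay above 61 and F6 and below control 52, so the groups overlapped. The difference of 0.31 (SE 0.198, limma adjusted p = 0.299) was −0.04 without 61 and F6. Under nPM, APOE3 males were at 525, 565, 558 and 540 CPM and APOE4 males at 509, 519, 513 and 479 CPM. All APOE3 males were above all APOE4 males in unscaled CPM, though not after TMM scaling, as 5.66% of 16861 genes also separated in one direction or the other. The difference was −0.11, or 0.925-fold (SE 0.0485, 95% interval −0.22 to −0.00605, limma p = 0.0402, adjusted p = 0.489, exact permutation p = 0.0571). In filtered air the male alleles overlapped, with a difference of −0.06 (SE 0.0658). Over the 2 sexes the APOE-TR male groups were all higher, with means of 505 to 547 CPM against 371 to 461 CPM in the female groups, and single mice overlapped from 479 to 497 CPM. In the order of the 8 means, only the gap between APOE4 nPM males and APOE4 nPM females was larger than both SDs.

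In B6 mice Ntrk2 was at 265, 238, 237 and 258 CPM in female controls and 191, 282, 227 and 221 CPM in nPM females. B6 males were uneven. Controls were at 132, 365, 113 and 332 CPM, so that the group held both the lowest and the highest B6 values, and nPM males were at 126, 217, 149 and 252 CPM. The summed level of 7 astrocyte markers moved with Ntrk2 in these 8 males (Pearson r = 0.881, Spearman rho = 0.905), running from 1047 to 2878 CPM. The transcript-length slope of these libraries, from −0.221 to 0.0707, moved with Ntrk2 as well (Pearson r = 0.801, Spearman rho = 0.786). Fewer cells of a type and less RNA per cell cannot be told apart in bulk tissue. The parts of astrocytes and of the slope in this spread were not tested.

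Ntrk3, the TrkC gene, was lower under nPM in B6 females by the point estimate. Controls were at 71.7, 76.5, 51.2 and 57.97 CPM and nPM mice at 36.3, 53.2, 33.9 and 54.98 CPM. Mice 50 and 52 were below every control while 51 and 53 lay between controls 42 and 43. The difference was −0.51, or 0.7001-fold (SE 0.202, 95% interval −0.95 to −0.08, limma p = 0.024, adjusted p = 0.419), and the exact permutation test gave p = 0.114. B6 males showed −0.07 (SE 0.244), with 38.4, 42.6, 39.4 and 50.1 CPM against 39.1, 30.4, 36.2 and 66.3 CPM.

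In APOE-TR males, Ntrk3 was nearly constant, between 56.3 and 66.8 CPM in all 16 mice, and the 4 group means of 61.1 to 62.0 CPM differed by less than their SDs. APOE-TR females were lower and more spread. APOE3 female controls were at 45.6, 21.7, 37.7 and 25.4 CPM, and nPM mice at 33.1, 56.9, 59.9 and 43.3 CPM. The groups overlapped, with nPM mouse 55 below controls 52 and 63. The difference was 0.64, or 1.56-fold (SE 0.292, 95% interval −0.02 to 1.30, limma adjusted p = 0.229), and without 61 and F6 it was 0.19. APOE4 female controls, at 43.05, 44.7, 54.3 and 58.2 CPM, exceeded the same APOE3 controls by 0.73, or 1.66-fold (SE 0.253, limma adjusted p = 0.0812), and by 0.27 without 61 and F6 (SE 0.1359, limma adjusted p = 0.2472). Without control 52 the difference was 0.92 and passed (limma adjusted p = 0.0252, from 0.00126 to 0.949 over the settings that keep all mice or leave out 61 and F6). That fit keeps 61 and F6 among the remaining APOE3 controls. With 1 mouse left out, up to 39 of the further pathway genes described below passed in this comparison. The nPM and the allele comparison share the same 4 APOE3 control mice. In the order of the 8 means, only APOE3 nPM females and APOE3 female controls, next to last and last, lay further apart than both SDs. Under nPM the females differed by 0.28 between alleles (SE 0.168), with APOE4 at 58.1, 57.3, 52.6 and 58.8 CPM, and the male differences of 0.01 and −0.02 had standard errors of 0.0578 and 0.0598.

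Ngfr, the p75NTR gene, was low in cortex, with group means of 0.796 to 1.65 CPM in APOE-TR mice, and 0.420 and 0.456 CPM in the B6 female groups. Among B6 mice, most males were higher than the females and the males were more spread. Controls had 4.39, 20.2, 1.09 and 17.5 CPM, and nPM males had 0.316, 4.92, 1.70 and 1.46 CPM. The high values came from control mice 0, 2 and 6 and nPM mouse 11, and the groups overlapped. The difference was −1.84, or 0.280-fold (SE 0.747, 95% interval −3.44 to −0.23, limma p = 0.028, adjusted p = 1, exact permutation p = 0.2). Without control 3 it was −2.58 with a limma p of 0.00117, past the unadjusted threshold. The share of all genes past it in that fit is not given. Markers of other cells also varied among these males. Summed levels of 4 markers of basal forebrain cholinergic neurons, Chat, Slc18a3, Slc5a7 and Lhx8, were 4.58 to 48.7 CPM in the controls and 2.01 to 21.3 CPM in the nPM males, and all 4 were above the value of a gene without reads in every male except mouse 12, which had 2 at that value. Controls 0 and 2 had the lowest sums of the 7 excitatory neuron markers, 1177 and 1420 CPM, where controls 6 and 3 had 2072 and 3949 CPM and nPM males 2717 to 3943 CPM. Chat, the acetylcholine-synthesising enzyme, was at 9.08, 15.4, 1.54 and 8.33 CPM in controls 0, 2, 3 and 6 and at 3.87, 6.53, 0.310 and 3.58 CPM in nPM mice 10, 11, 12 and 16. Over the 8 males Ngfr and the cholinergic sum had a Pearson r of 0.566 and a Spearman rho of 0.595, a description of 8 libraries in which level and sum come from the same RNA. Mouse 10 went against it, with the lowest Ngfr of the 8 and a cholinergic sum of 21.3 CPM. In the same 8 males Ngfr and the excitatory neuron sum had a Pearson r of −0.682 and a Spearman rho of −0.69. Over the 32 APOE-TR mice Ngfr and the cholinergic sum had a Pearson r of 0.219. The part of either cell type in the difference was not tested.

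**Figure D3:**
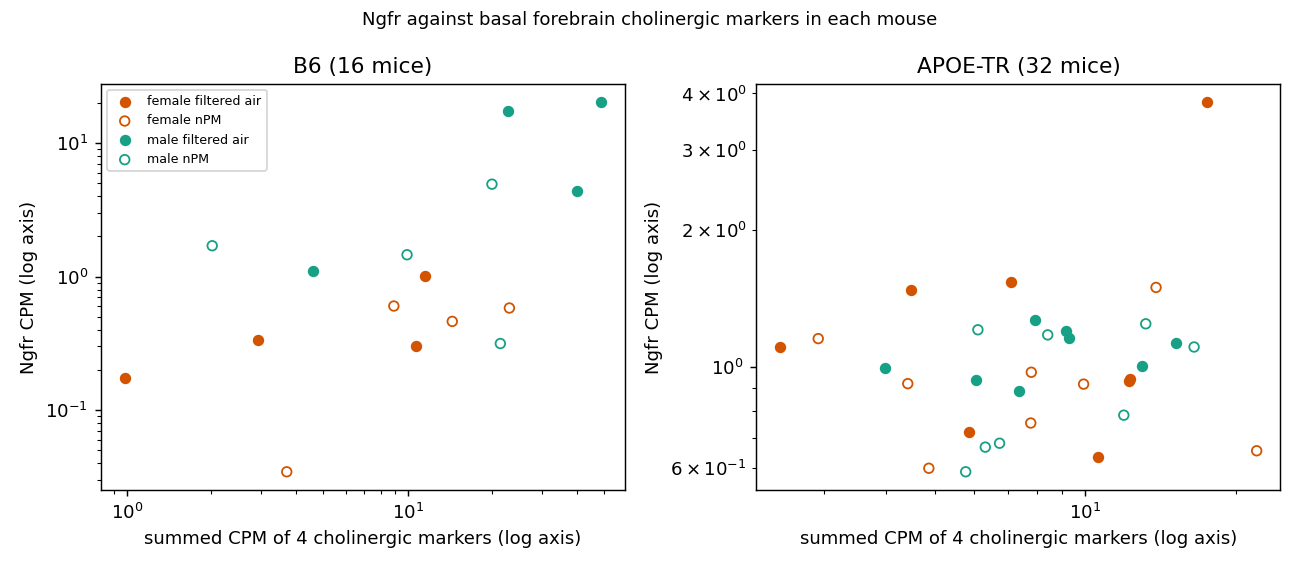
Ngfr in CPM against the summed CPM of 4 cholinergic markers in each mouse, both on log axes, for 16 B6 mice (left) and 32 APOE-TR mice (right); colours give the sex, filled points filtered air and open points nPM. Among B6 mice the highest Ngfr values, 17.5 and 20.2 CPM, are male controls with cholinergic sums among the 4 highest of the B6 table. Among APOE-TR mice APOE3 female control 52 is the highest, at 3.83 CPM.

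In APOE3 males Ngfr was at 1.27, 0.885, 1.13 and 1.20 CPM in filtered air and at 1.25, 0.589, 0.681 and 0.667 CPM under nPM. All nPM mice but mouse 53 were below every control, on 23 to 42 reads a mouse. The difference was −0.34, or 0.788-fold (SE 0.147, 95% interval −0.67 to −0.02, limma p = 0.0393, adjusted p = 1, exact permutation p = 0.114). Without nPM mouse 53 it was −0.49 with a limma p of 0.00124, past the unadjusted threshold. The share of all genes past it in that fit is not given. In APOE3 females the controls were at 3.83, 0.721, 0.940 and 1.11 CPM, of which only mouse 52 was high, and nPM mice were at 0.754, 0.600, 0.920 and 0.975 CPM. The difference was −0.48 (SE 0.369), −0.07 without control 52 and −0.93 without 61 and F6. The APOE4 differences were −0.06 in females (SE 0.213) and 0.04 in males (SE 0.109). Between alleles the 4 estimates ran from −0.18 to 0.30 with standard errors of 0.102 to 0.394, and the −0.18 of female controls was −0.63 without 61 and F6.

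Vgf, the secreted target of neurotrophin signalling, gave its largest differences in comparisons with the APOE3 female controls. APOE3 female controls were at 84.9, 22.6, 82.9 and 40.9 CPM, and nPM mice at 62.1, 92.8, 118 and 106 CPM. Mice 61 and F6 were below every nPM mouse, controls 52 and 63 were above mouse 55, and the groups overlapped. The difference was 0.91, or 1.89-fold (SE 0.442, 95% interval −0.09 to 1.92, limma adjusted p = 0.231). Without 61 and F6 it was 0.14. APOE4 female controls were at 99.3, 93.9, 111 and 129 CPM, all above all 4 APOE3 controls. This separation was shared by 29.3% of 16419 genes in the same comparison, against 3.59% in male controls. The difference was 1.15, or 2.22-fold (SE 0.413, 95% interval 0.21 to 2.09, limma p = 0.0221, adjusted p = 0.0849, exact permutation p = 0.0286), and 0.37 without 61 and F6, when APOE4 mice were still above the 2 remaining APOE3 controls. Without control 52 it was 1.41 and passed (limma adjusted p = 0.0303, from 0.00141 to 0.877 over the settings that keep all mice or leave out 61 and F6). That fit keeps 61 and F6 among the remaining APOE3 controls, and up to 39 further pathway genes passed with 1 mouse left out.

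Under nPM, APOE4 females had 129, 139, 98.0 and 102 CPM of Vgf, overlapping with the APOE3 nPM females above, and the difference was 0.35 (SE 0.197, limma adjusted p = 0.532). No such pattern was seen in males. APOE3 males were at 66.6, 79.9, 54.1 and 70.2 CPM in filtered air and 61.7, 74.6, 68.5 and 85.5 CPM under nPM, and APOE4 males at 65, 72.1, 64.4 and 78.7 CPM and at 60.7, 95.2, 64.8 and 62.5 CPM. The male allele differences were 0.06 and −0.05 with standard errors of 0.109 and 0.139, and the male nPM differences were 0.11 and −0.00186 with standard errors of 0.122 and 0.126. In B6 mice the Vgf means were 28.5 and 31.2 CPM in females and 23.7 and 24.1 CPM in males, with nPM differences of 0.19 and 0.02 (SE 0.218 and 0.269). In the order of all 8 APOE-TR means, from APOE4 nPM females at 117 CPM down to APOE3 female controls at 57.8 CPM, no neighbouring pair differed by more than the larger SD.

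Levels of several members followed the transcript-length slope of the libraries. The longest annotated transcripts have 19703 bases for Ntrk3, 8744 for Ntrk2, 4266 for Bdnf and 2834 for Vgf. The order of the correlations below is therefore not the order of length. In the 16 APOE-TR females, Ntrk3 had a Pearson r of 0.977 with the slope, Vgf 0.976 and Ntrk2 0.92, and Bdnf −0.465. Without 61 and F6, in 14 females, the values were 0.946 for Ntrk3, 0.869 for Vgf, 0.497 for Ntrk2 and 0.0571 for Bdnf (Spearman rho 0.749, 0.767, 0.275 and −0.0725). In the 16 APOE-TR males Ntrk3 had 0.401 and Vgf −0.467, and in the 8 B6 females 0.747 and −0.694. These are descriptions, in which each level and slope come from the same library. APOE3 females differed in slope by group, with −0.113, −0.545, −0.150 and −0.396 in controls and −0.218, −0.00718, −0.0109 and −0.0812 under nPM. With the slope as a covariate the Vgf differences became −0.07 for nPM and −0.06 for the allele in female controls. The part of this property of the libraries in the female differences of Ntrk3 and Vgf cannot be told apart from exposure and allele in these 4 controls.

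**Figure D4:**
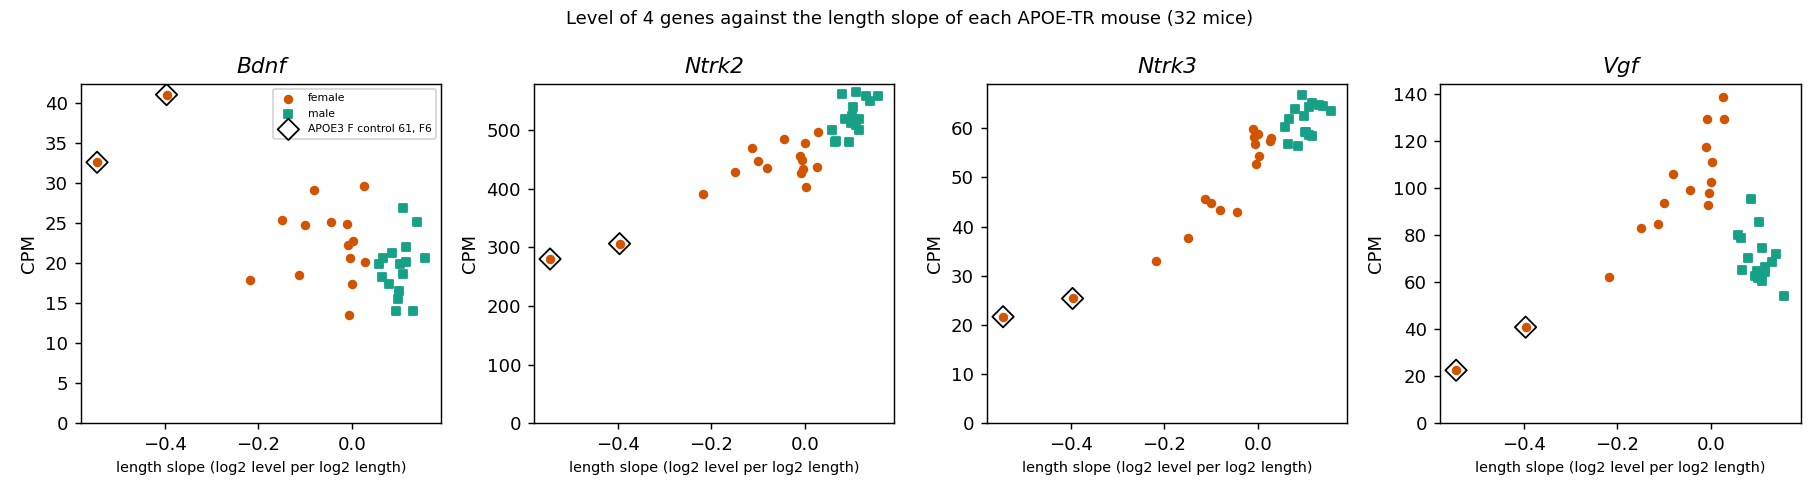
CPM of Bdnf, Ntrk2, Ntrk3 and Vgf against the length slope of each APOE-TR library, the change of log2 level per doubling of transcript length, for 16 females (circles) and 16 males (squares); diamonds mark APOE3 female controls 61 and F6. Ntrk3 and Vgf are higher at higher slopes among females, with r of 0.946 and 0.869 without the marked mice, and all males lie at 0.0578 or above on the horizontal axis.

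Whether the response to nPM differed between alleles was tested as an interaction over the 32 APOE-TR mice. Of 6 members, 0 passed at an unadjusted p under 0.005, against 0.726% of 15972 genes. The estimates ran from −0.45 for Vgf (SE 0.278, limma adjusted p = 0.449) to 0.40 for Ngfr (SE 0.257). Without 61 and F6 these were −0.07 and 0.62, the latter with a limma adjusted p of 0.705. Within females 3.76% of genes passed and 0 of 6 members did, with −0.80 for Vgf (SE 0.394, limma adjusted p = 0.173), which was −0.03 without 61 and F6. Within males 0.0313% of genes passed and 0 of 6 members. Ngfr had 0.38 in males and 0.42 in females with standard errors of 0.363, and the female value was 0.87 without 61 and F6 (limma adjusted p = 0.563). For the difference of response between females and males over 3 genotypes, 0 of 4 members passed against 1.98% of 11097 genes, and Vgf had the largest estimate, 0.36 (SE 0.218, limma adjusted p = 0.449), which was 0.11 without 61 and F6. Responses in the 2 sexes and alleles were thus not shown to differ for any member.

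Of 99 further genes of the pathway (ligands, receptors and co-receptors, precursor processing, adaptors, kinases, activity-regulated genes and dense-core granule proteins), 89 were tested over the 48 mice. At an unadjusted p under 0.005, 2 rose and 1 fell with nPM, a share of 3.37% against 1.47% of all genes. The median difference of the 89 was 0.087 against 0.00746 for all genes, and 68 were higher. Lingo1, a co-receptor of p75NTR and the Nogo receptor, rose by 0.34 (SE 0.104), and Rtn4r, the Nogo receptor itself, rose by 0.51 (SE 0.168). Rap1a, a small GTPase downstream of Trk receptors, fell by 0.36 on the log2 scale (SE 0.0968). Their adjusted p from limma was 0.303, and without 61 and F6 the count was 1. In B6 females 2 of 91 rose, Arhgdia (0.64, SE 0.17) and Camk2b (0.54, SE 0.139), where 1.19% of all genes passed. In B6 males 3 of 91 rose, among them Lingo1 (0.96, SE 0.264) and Homer1 (0.92, SE 0.275), where 0.246% of all genes passed. Between the same males 7 of 7 excitatory neuron markers were higher under nPM (median 1.61). Of 7 inhibitory neuron markers 6 were lower and 1 was higher (median −0.722). The part of this difference in cell markers was not tested. None of 98 passed in the 4 APOE-TR nPM comparisons, in which an unadjusted p under 0.05 was found for 18 in APOE3 females (21.1% of all genes), 0 in APOE3 males (2.22%), 5 in APOE4 females (5.59%) and 9 in APOE4 males (4.14%).

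For the allele over 48 mice, Chga, a granule protein stored with neuropeptides, was the 1 pathway gene past 5% FDR, at 0.50 higher in APOE4 (SE 0.118, limma adjusted p = 0.0306), and it did not pass without 61 and F6. None of 98 pathway genes passed 5% FDR in any of the 4 stratified allele comparisons, where 43 in female controls (41.1% of all genes), 6 in male controls (5.82%), 18 in nPM females (9.1%) and 9 in nPM males (9.85%) had an unadjusted limma p under 0.05. In the interaction of allele and nPM, Irs1 (−0.38, SE 0.115) and Chgb (−0.38, SE 0.122) passed at p under 0.005 with a lower response in APOE4, which are 2 of 98 against 0.726% of all genes. Within females the count was 6 of 98 against 3.76% of all genes, led by Scg2 (0.65, SE 0.171), Chgb (−0.65, SE 0.173) and Rps6ka1 (−0.57, SE 0.152), and it was 1 without 61 and F6. Ntf5, the gene of a further TrkB ligand, had group means of 0.0895 to 0.266 CPM in APOE-TR mice, and Sort1, the sortilin gene, had group means of 238 to 507 CPM.

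Among the members, Ntrk2 and Ntrk3 varied together over the 32 APOE-TR mice (Pearson r = 0.895), less so over the 30 without 61 and F6 (0.687) and over 16 B6 mice (0.456). Bdnf and Vgf had −0.0652 over 32, 0.481 over 30 and 0.275 over the 16 B6 mice. The other 13 pairs ran from −0.457 (Ntrk2 and Vgf) to 0.0147 (Ntf3 and Ngfr) over the 30 mice. The genes whose log2 level was most like a member's over the 32 mice, among 15415 genes, were Dusp14 (r = 0.809), Gadd45a (0.782) and Dusp6 (0.763) for Bdnf, with −0.0133, 0.621 and 0.482 in B6 mice. Dusp6 and Dusp14 encode phosphatases of MAP kinases. These correlations are descriptions, in which both levels come from the same libraries. For Ntf3 they were Esr1 (0.691), Fxyd6 (0.677) and Mapk3 (0.661), with 0.352, 0.451 and 0.341 in B6 mice. Ngfr was most like Arhgap36 (0.752), Irs4 (0.703) and Magel2 (0.656), and these 3 had 0.875, 0.869 and 0.815 over the B6 mice. Their rank correlations over the 32 mice were lower, at 0.472, 0.304 and 0.391. Ntrk2 was like Usp54 (0.964) and Eif4ebp2 (0.962), Ntrk3 most like Cacna1b (0.984), Tmem181b-ps (0.983) and Zc3h13 (0.982), and Vgf most like Cbarp (0.95), Zbtb7a (0.949) and Slc39a3 (0.949). In B6 mice the values were 0.317 and 0.817 for Ntrk2, and 0.731, −0.518 and 0.601 for Ntrk3. For Vgf the B6 values were −0.0753, −0.389 and −0.246, so the likeness in APOE-TR mice was not found in the B6 table.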

How the data were processed

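Cortical RNA of 48 mice was sequenced by the authors as stranded poly(A) libraries (single-end, NextSeq500). Reads were aligned with TopHat2 2.0.8b in Partek Flow to mm10 with RefSeq genes. The deposited values are CPM per gene in 1 table for 16 B6 and 1 for 32 APOE-TR mice. The scaling behind them was not given in the sources used here, and their sums per mouse ran from 526600 to 880400. Of low values, 87.7 to 98.4% in B6 and 96.2 to 97.1% in APOE-TR mice were whole multiples (within 0.1) of the value of 1 read, from which reads per mouse were estimated. Here values were scaled by TMM and tested as log2 (CPM + 0.5) with limma 3.58.1 (R 4.3.3) over all genes with reads in each mouse that entered the fit, with Benjamini-Hochberg adjustment. Response to nPM and its differences were called at an unadjusted p under 0.005, the threshold of the study, and alleles at 5% FDR. Exact permutation tests used 70 labelings of 8 mice. Named were the 6 members, up to 3 called pathway genes per direction and comparison, and the 3 genes most correlated with each member. The members and all gene lists were chosen with earlier results of these data known. Alternatives were other scalings, pseudocounts of 0.1 and 2, no filter, voom weights, ComBat, pooled variances, edgeR 4.0.16 and DESeq2 1.42.0 on recovered reads, length slope as a covariate, fits to part of the mice, and fits without any 1 mouse. In simulated data with 200 genes changed by 1.5 on the log2 scale the fits were tested for recovery. Nothing says whether mice shared a cage or an exposure chamber. Some genes that these rules name are not reported here.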

Additional observations from a re-analysis of the deposited data

Results flagged for a closer look

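Of 72 groups of 4 mice, each a member in a group, 3 held a mouse whose gap to the nearest other value took up more of the group's range than Dixon's 95% limit for 4 values, where chance alone would give about 1 in 20, or 3.6. Ngfr was at 3.83 CPM in APOE3 female control 52, against 0.721 to 1.11 CPM in the other controls of that group. Ngfr was at 1.25 CPM in APOE3 nPM male 53, against 0.589 to 0.681 CPM in the others. Vgf was at 95.2 CPM in APOE4 nPM male 33, against 60.7 to 64.8 CPM in the others. The part of these single mice in the comparisons they enter is given with the values without each mouse.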

How the results depend on the processing

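No member passed a threshold with any scaling, pseudocount, filter, count test or voom setting. With 1 variance shared over groups, the number called was 1 for nPM in B6 males (Ngfr), 2 for nPM in APOE3 females (Ntrk3 and Vgf) and 3 for the allele in female controls (Ntrk2, Ntrk3 and Vgf, limma adjusted p = 0.0166, 0.00126 and 0.00141), where the same setting called 763 of 12121, 1668 of 15725 and 8866 of 16419 genes. Over the alternatives, the limma adjusted p there ran from 0.0166 to 0.958 for Ntrk2, from 0.00126 to 0.949 for Ntrk3 and from 0.00141 to 0.877 for Vgf. Leaving out 1 mouse, the count ran from 0 to 1 in B6 males (Ngfr −2.58 without control 3), from 0 to 1 in APOE3 males (Ngfr −0.49 without nPM mouse 53) and from 0 to 2 for the allele in female controls (Ntrk3 0.92 and Vgf 1.41 without control 52), and it was 0 in the other comparisons. In these fits the pathway genes called ran from 0 to 7 in B6 males and from 0 to 39 for female controls. In APOE3 males there were 0. The share of all genes called in these fits is not given here. Directions turned for members near 0. For nPM over 48 mice, Bdnf was −0.034 with voom, −0.13 with voom and ComBat and −0.22 in APOE-TR mice. Ntrk2 was −0.0927 with the length slope as a covariate, −0.17 in B6 mice, −0.0595 in males and −0.0545 without APOE3 female controls 61 and F6, and Ntrk3 was −0.095, −0.29, −0.0244 and −0.0649 under the same settings. For the allele over 48 mice, Ntrk2 was −0.12 with the slope and −0.0382 without 61 and F6, where Bdnf was 0.0368. For nPM in APOE3 females, Ntf3 was −0.0187 without rescaling and −0.000577 with DESeq2, Ntrk2 was −0.10 and Vgf −0.0744 with the slope, and Ntrk2 was −0.0439 without 61 and F6. For the allele in female controls, the slope gave 0.23 for Bdnf, −0.14 for Ntrk2 and −0.0622 for Vgf, and leaving out 61 and F6 gave 0.14 for Bdnf and −0.0112 for Ntrk2. The cause of these turns was not tested. Leaving out 1 mouse gave −0.0334 to 0.0946 for Bdnf, −0.0279 to 0.0556 for Ntrk2 and −0.0115 to 0.078 for Ntrk3 under nPM over 48 mice, −0.0898 to 0.0236 for Bdnf between alleles over 48 mice, −0.11 to 0.13 for Ntf3 under nPM in APOE3 females, and −0.40 to 0.23 for Ngfr and −0.31 to 0.0282 for Ntf3 between alleles in female controls. Of the named member results under the other settings, 240 values kept direction and call, 24 turned direction and 6 newly passed. The setting without 61 and F6 was chosen after seeing the data. In APOE-TR mice, on recovered reads, edgeR called 121 genes for nPM in APOE3 females and DESeq2 466, against 109 with limma, and for the allele in female controls 33 and 4156 against 38. Without 61 and F6, limma called 341 genes there, and 39 instead of 163 for nPM over 48 mice. Pathway genes called for the allele in female controls ran from 0 to 60 over the settings. Count tests were not run where B6 mice entered, because too few B6 values came out whole. No paired analysis was possible because the groups compared share fewer than 2 mouse numbers. Ntf3 and Ngfr are limited by depth, at medians of 23.5 and 31.5 reads in APOE-TR and 8.32 and 12.5 reads in B6 mice. Every interval covers only the spread between the mice of its fit, with 4 mice a group and a variance that limma moderates over all genes.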

Other observations

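Of 15 activity-regulated genes of the pathway lists (Arc, Egr1, Fos and the like, transcribed in active neurons as Bdnf is), all 15 were higher in APOE4 than in APOE3 nPM females, with a median difference of 0.746 against 0.000795 over all genes, and 10 had an unadjusted limma p under 0.05, which 9.1% of all genes had. None passed 5% FDR. Arc, which shapes the synaptic cytoskeleton, was 1.06 higher (SE 0.255, limma adjusted p = 0.322), Junb 0.69 higher (SE 0.166, adjusted p = 0.332) and Dusp1 0.75 higher (SE 0.194, adjusted p = 0.377), named after their values were seen as the 3 with the smallest p. Bdnf differed by 0.09 in the same mice (SE 0.239, 95% interval −0.45 to 0.62). Between alleles in female controls 12 of the 15 genes were higher in APOE4, with a median of 0.595. There 6 had an unadjusted limma p under 0.05 (41.1% of all genes). In males 9 of 15 were higher in APOE4 both in filtered air and under nPM, with medians of 0.0243 and 0.0371. In APOE4 females under nPM all 15 of these genes were higher as well, with a median of 0.211 and 2 at an unadjusted p under 0.05 (5.59% of all genes), and in APOE4 males 13 of 15 were lower, with a median of −0.20 and 4 at that level (4.14% of all genes), where Bdnf was 0.809-fold. Both comparisons in APOE4 females use the same 4 nPM mice. Markers of other cells also differed in some of these comparisons. Between alleles in nPM females 6 of 6 striatal neuron markers were higher (median 0.623), 4 of 4 cholinergic markers were higher (0.649) and 7 of 7 astrocyte markers were lower (−0.21), with striatal sums of 231 to 1157 CPM in APOE4 and 356 to 551 CPM in APOE3 mice. Striatal markers were 6 of 6 higher under nPM in APOE4 females (0.264) and in APOE4 males (0.352). Cholinergic markers were 4 of 4 higher in both (0.291 and 0.379). In the males both lists thus went opposite to the activity-regulated genes, and the part of these markers was not tested.

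Marker lists of tissue next to the cortex varied widely. Striatal neuron markers summed to 77.6 to 1242 CPM in B6 and 231 to 1157 CPM in APOE-TR mice, choroid plexus markers to 1.73 to 75.8 CPM and 8.71 to 1477 CPM, and dentate granule cell markers to 3.75 to 21.7 CPM and 3.13 to 21.9 CPM. Their part in the levels of the 6 genes was not tested.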
